A study of Mus musculus with 6 samples.

Results

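The proteasome is the cell's main protease for proteins tagged with ubiquitin, and its genes were examined here in livers of mice heterozygous for Ptprd. Members were the protein-coding rows of the deposited count table whose gene name begins with Psm, a letter from a to g and a digit. The rule took 49 of 25904 genes. Another 4 rows with such names have a biotype other than protein-coding and at most 6 counts in any library. Livers came from C57BL/6J mice, 3 Ptprd+/- (Het) and 3 Ptprd+/+ (WT), and polyadenylated RNA was sequenced from stranded libraries. The title of the series links Ptprd, a receptor-type tyrosine phosphatase gene, to metabolic disease of the liver. The groups differ in genotype alone as far as the labels go. Neither the way the allele was altered nor the sex, age, diet or collection time of the mice is stated in the sources used here. If libraries shared a mouse, p-values would measure technical spread alone.

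The core particle, called 20S, is a barrel of 4 stacked rings, with alpha subunits in the outer rings and beta subunits in the inner ones, where the proteolytic sites lie. The regulatory particle, called 19S, caps the barrel. Its ATPases unfold substrates and open the gate, and its non-ATPase subunits bind ubiquitin chains and remove them. Under interferon gamma the catalytic subunits Psmb5, Psmb6 and Psmb7 can be replaced by Psmb8, Psmb9 and Psmb10, which gives the immunoproteasome, a form that cuts peptides for class I antigen presentation. Subunit genes are known to be induced together by the transcription factor NRF1, product of Nfe2l1, through antioxidant response elements when proteasome activity falls.

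Total counts ran from 37924266 to 72954187 per library. Values are CPM, read counts scaled to the effective library size, and fold changes are Het over WT on the log2 scale with the standard error (SE). Ptprd had 54.1, 78.1 and 63.4 CPM in the Het livers, against 128, 127 and 132 CPM in the WT livers, so each library matched its label (log2 fold change -0.99, SE 0.14, adjusted p 0.298 by edgeR and 2.01e-06 by DESeq2). The hepatocyte gene Alb was at 100040 CPM or more in every library. In bulk tissue, fewer cells of a type and less RNA per cell cannot be told apart. Clock genes set Het 2 and Het 3 apart from the other libraries, with Dbp at 13.5, 129 and 122 CPM in Het against 18.9, 29.6 and 14.4 CPM in WT.

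Of the 49 members, 39 had a higher fitted level in Het (79.6%, against 49.2% of all tested genes) and 10 a lower one. The differences were small, and no member passed the test over all genes. By edgeR's quasi-likelihood test 0 members had an adjusted p under 0.05, where the background over all 14606 tested genes was also 0%. The smallest adjusted p of a member was 0.617. DESeq2 and limma-voom also called 0 members, with a background of 0.511% for DESeq2. At an unadjusted p under 0.05, 4 members were higher (8.16% of members, against 3.39% of all tested genes) and 0 were lower (background 3.77%). In 15 members (30.6%) the 3 Het libraries lay above the 3 WT libraries, against 7.15% of all tested genes. No member lay wholly below, where the background was 6.72%. The median log2 fold change was 0.10 over the members and 0.00 over all tested genes.

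Of the 32 genes of the 20S alpha ring, the constitutive 20S beta ring, the 19S ATPases and the 19S non-ATPase subunits, 30 had a higher fitted level in Het, and in 12 (37.5%) the genotypes did not overlap. Their median log2 fold change was 0.14. Among the 17 other members, the genotypes did not overlap in 3 (17.6%), namely Psme3, Psmg3 and Psmd9, each higher in Het. Over all tested genes, 49.2% were higher in Het, 7.15% lay wholly above and 6.72% wholly below. The same backgrounds hold for the role groups and gene lists below. The members were chosen with earlier results of these data known, so these shares describe the libraries and test nothing.

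**Figure D1:**
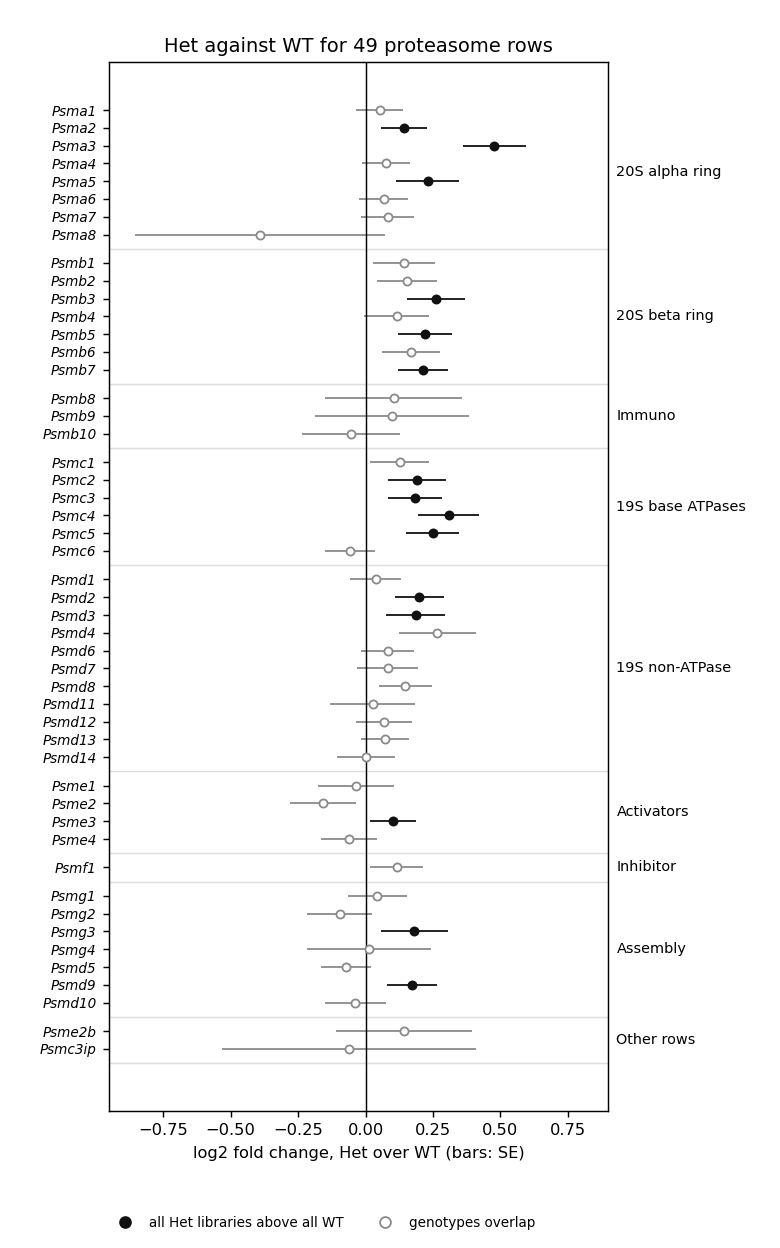
Log2 fold change of Het over WT (horizontal axis) with its standard error for the 49 proteasome rows, grouped by role. Filled points mark the 15 genes whose lowest Het library exceeded the highest WT library. The 7 constitutive beta subunits and the 11 non-ATPase subunits all lie at or above 0, between 0.00 and 0.27, and Psma3 lies farthest right at 0.48.

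A single liver, Het 1, held the highest value of the 6 in 38 of the 49 members (77.6%), against 22.8% of all tested genes. In the 32 standard subunits it was the highest in 29 (90.6%), while Het 2 and Het 3 were the highest in 0. WT 2 was the lowest in 17 of these 32 genes (53.1%), against 14.4% of all tested genes. Summed over the members, CPM was 3424, 3037 and 2934 in the Het libraries, against 2921, 2849 and 2913 in the WT libraries. Het 1 stands above the rest, Het 2 is next, and Het 3 is close to WT 1.

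Without Het 1 the median log2 fold change was 0.03 over the members and 0.06 over the 32 standard subunits, of which 25 were still higher in Het. Then 1 member was higher at an unadjusted p under 0.05. Both remaining Het libraries exceeded the WT libraries in 14 members and were below them in 4, where the background of so small a comparison was 11% in the upward and 11.3% in the downward direction. By their sum, hepatocyte markers were highest in the same library, where Alb alone had 144174 CPM. Apoa1 and Serpina1a were also highest in Het 1. Ttr and Cyp2e1 were highest in Het 3, and Cps1 in Het 1 lay below every WT library. The summed level of the 6 markers, all detected, was 181721, 150747 and 150869 CPM in Het, against 132427, 125024 and 149951 CPM in WT, and their part in the proteasome values was not tested.

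**Figure D2:**
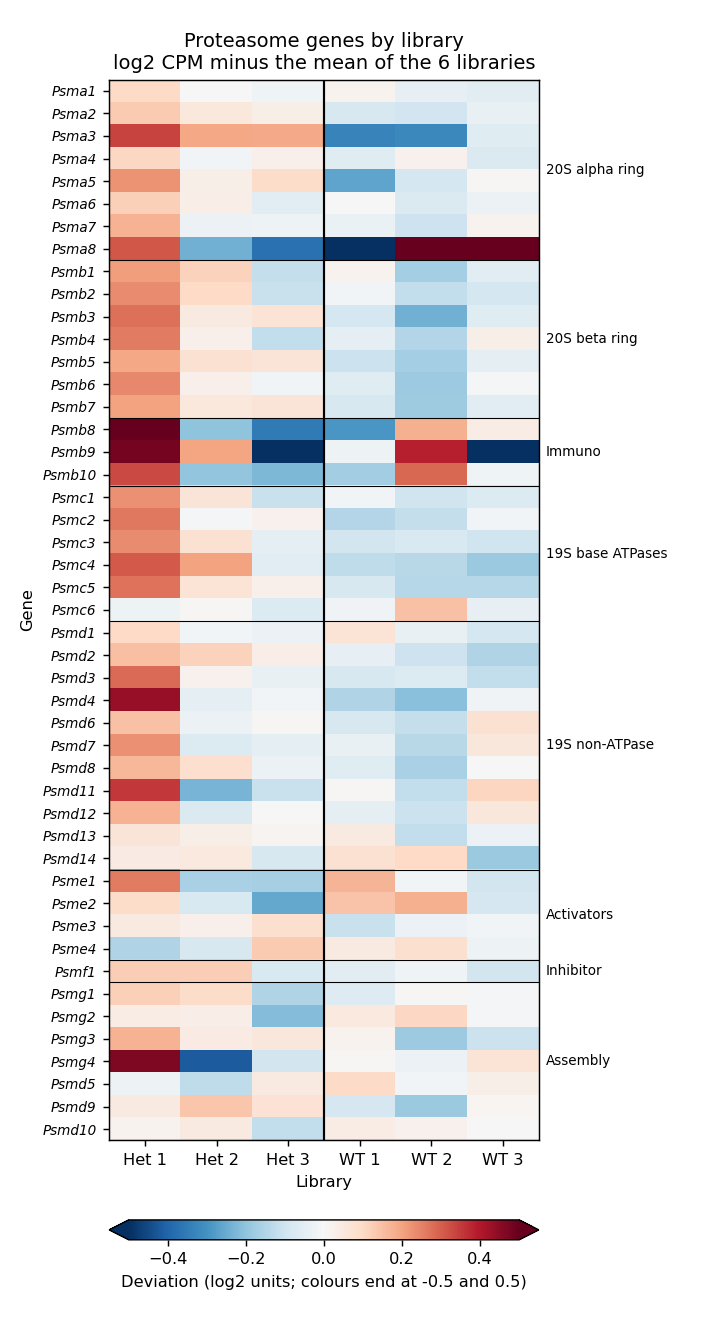
Log2 CPM of each of the 47 subunit, activator and assembly genes (rows, by role) minus its mean over the 6 libraries (columns, Het left of WT). Red is above and blue below the mean of the gene. The Het 1 column is red through the 20S and 19S blocks, while Het 2 and Het 3 are paler and the WT columns mostly light blue.

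In the alpha ring, 7 of 8 genes had a higher fitted level in Het, and the median (log2) was 0.08. Psma3 (ENSMUSG00000060073, chromosome 12 from 70974621 to 70996347, mm10), one of the ring subunits, differed most of all members that exceeded 1 CPM. It had 19.8, 17.9 and 17.9 CPM in Het, against 12.4, 12.5 and 15.0 CPM in WT, so the lowest Het library was above the highest WT library. Its mean was 18.6 ± 1.1 CPM in Het and 13.3 ± 1.48 CPM in WT (SD, n = 3 each), which is 1.39-fold (log2 fold change 0.48, SE 0.12). Its edgeR unadjusted p was 0.00338 and its adjusted p 0.617, with DESeq2 the adjusted p was 0.141, and without Het 1 the log2 fold change was 0.42. Psma2 and Psma5 also had Het libraries that did not overlap the WT libraries, at log2 fold changes of 0.14 and 0.23. Psma1, Psma4, Psma6 and Psma7 overlapped, at 0.05 to 0.08. Psma8, the alpha subunit of the testis form, was near the detection limit with 0.905, 0.617 and 0.564 CPM in Het, against 0.347, 1.05 and 1.31 CPM in WT.

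In the constitutive beta ring, all 7 genes had a higher fitted level in Het (median 0.17 on the log2 scale), and in Psmb3, Psmb5 and Psmb7 the genotypes did not overlap. Psmb3 (ENSMUSG00000069744, chromosome 11 from 97703399 to 97713500), a structural subunit without a proteolytic site, had 24.9, 21.2 and 21.5 CPM in Het, against 19.3, 17.4 and 19.7 CPM in WT. Its log2 fold change was 0.26 (SE 0.11), with an unadjusted p of 0.0416 and an adjusted p of 0.694 by edgeR. Het 1 was the highest library and the other Het libraries lay just above WT 3.

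The 3 catalytic subunits were alike. Psmb5, the chymotrypsin-like subunit, had 18.3, 16.8 and 16.7 CPM in Het, against 14.8, 14.2 and 15.4 CPM in WT (log2 fold change 0.22, SE 0.10). Psmb7, the trypsin-like subunit, had 112, 102 and 102 CPM in Het, against 92.6, 86.4 and 94.0 CPM in WT (log2 fold change 0.21, SE 0.09). Psmb6, the caspase-like subunit, had 143, 123 and 119 CPM in Het, against 116, 106 and 120.1 CPM in WT (log2 fold change 0.17, SE 0.11). Het 3 lay just below WT 3 for Psmb6, while for the other two every Het library was above every WT library. Their edgeR adjusted p values were 0.694 for Psmb5 and Psmb7 and 0.746 for Psmb6. Psmb1, Psmb2 and Psmb4 overlapped between genotypes, at log2 fold changes of 0.14, 0.15 and 0.12.

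The ATPase ring of the 19S base had the highest median of the role groups, 0.19. In 4 of its 6 genes, Psmc2 to Psmc5, every Het library lay above every WT library, against 7.15% of all tested genes. Psmc4 (ENSMUSG00000030603, chromosome 7 from 28041707 to 28050101) had 105, 97.4 and 81.5 CPM in Het, against 77.5, 77.0 and 74.5 CPM in WT. The WT libraries were close together and the Het libraries spread upward, at 94.5 ± 11.8 CPM in Het and 76.4 ± 1.6 CPM in WT (SD, n = 3 each). The log2 fold change was 0.31 (SE 0.11), with an unadjusted p of 0.0246 and an adjusted p of 0.685 by edgeR.

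Psmc5 (ENSMUSG00000020708, chromosome 11 from 106256154 to 106263120) had 90.3, 78.4 and 76.1 CPM in Het, against 70.8, 67.6 and 67.6 CPM in WT. Its log2 fold change was 0.25 (SE 0.10), with an unadjusted p of 0.0363 and an adjusted p of 0.694 by edgeR. Psmc6 was the ATPase with a lower fitted level in Het, at 77.8, 79.6 and 75.6 CPM in Het against 78.1, 87.5 and 76.9 CPM in WT. Its genotypes overlapped, and its log2 fold change was -0.06 (SE 0.09).

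All 11 non-ATPase subunits of the 19S particle had a log2 fold change above 0, with a median of 0.08 and a range of 0.00 for Psmd14, the deubiquitinase of the lid, to 0.27 for Psmd4, a ubiquitin receptor. Psmd2, the large base subunit that docks shuttle factors, had the smallest unadjusted p of the group, 0.059. It had 153, 149 and 141 CPM in Het, against 134, 128 and 124 CPM in WT, without overlap (log2 fold change 0.20, SE 0.09, edgeR adjusted p 0.698). Psmd3 did not overlap either, while 9 of the 11 did. Psmd4 reached 129 CPM in Het 1, while Het 2 at 92.1 CPM lay below WT 3 at 94.0 CPM. Psmd11, a lid subunit, was likewise high in Het 1 alone, at 91.3 CPM, against 60.7 and 66.1 CPM in Het 2 and Het 3 and 65.5 to 76.9 CPM in WT.

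**Figure D3:**
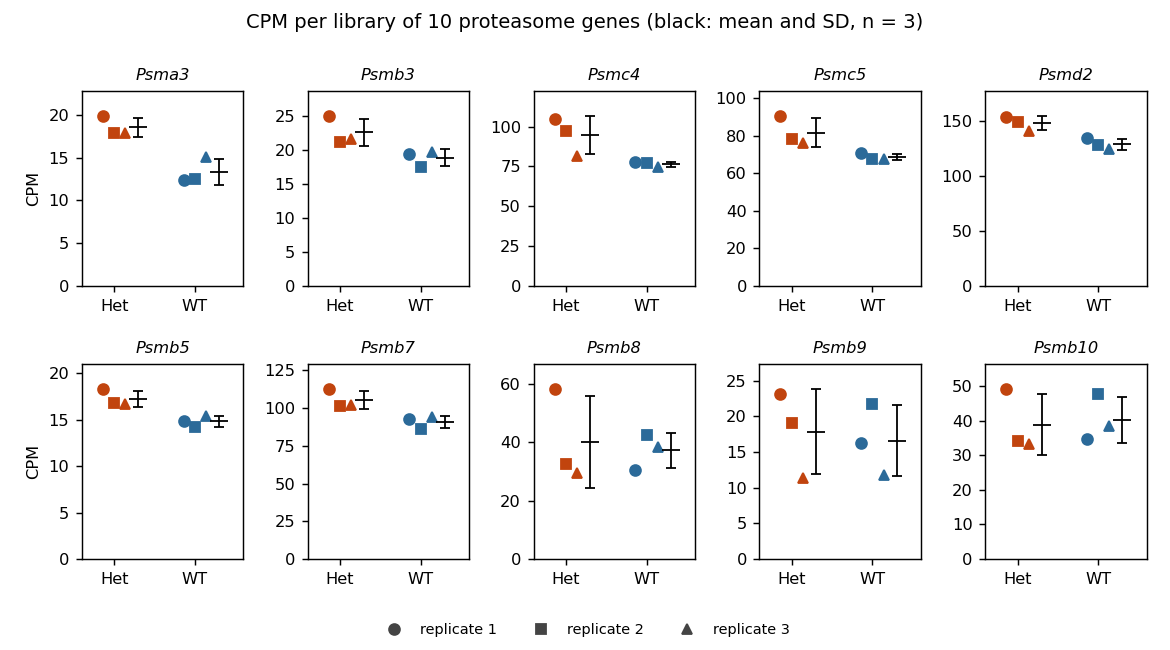
CPM per library (vertical axis from 0) of 10 proteasome genes in Het (orange) and WT (blue). Symbols mark the replicate number and the black mark gives the mean with its SD, n = 3. In the 7 genes from Psma3 to Psmb7 the Het points lie above the WT points, with Het 1 on top, while the immunosubunits Psmb8, Psmb9 and Psmb10 overlap widely.

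The 3 immunosubunits overlapped between genotypes, with a wide spread within each; whether they differ from the standard subunits was not tested. Psmb8 (ENSMUSG00000024338, chromosome 17 from 34197721 to 34201454) had 58.0, 32.6 and 29.3 CPM in Het, against 30.6, 42.4 and 38.4 CPM in WT. Psmb9 (chromosome 17 from 34181988 to 34187764) had 23.1, 19.01 and 11.4 CPM in Het, against 16.3, 21.7 and 11.8 CPM in WT. Psmb10 (chromosome 8 from 105935735 to 105938444) had 49.05, 34.0 and 33.4 CPM in Het, against 34.6, 47.7 and 38.4 CPM in WT. In each of the 3 genes Het 1 was the highest library, WT 2 the second and Het 3 the lowest, although in Psmb9 WT 3 lay close to Het 3.

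Their log2 fold changes were 0.10 (SE 0.25), 0.10 (SE 0.29) and -0.05 (SE 0.18), with edgeR adjusted p values of 0.947 to 0.966. Without Het 1 they were -0.27, -0.14 and -0.26. The pooled spread between replicates of 1 genotype, as an SD of the group's level, was 0.35 for the immunosubunits and 0.06 to 0.11 for the 4 standard groups (log2 units).

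A ratio of 2 counts within a library does not depend on its scaling. The log2 ratio of Psmb8 to Psmb5 was 1.67, 0.95 and 0.81 in Het, against 1.04, 1.58 and 1.31 in WT. For Psmb9 to Psmb6 it was -2.63, -2.69 and -3.39 in Het, against -2.83, -2.29 and -3.35 in WT. For Psmb10 to Psmb7 it was -1.20, -1.58 and -1.62 in Het, against -1.42, -0.86 and -1.29 in WT. The genotypes overlapped in all 3 ratios. The mean differences, Het minus WT, were -0.17, -0.08 and -0.27, and each was smaller than or close to the pooled SD between replicates, which was 0.37, 0.48 and 0.26. For Psmb9 to Psmb6 the difference was 0.17 without Het 3 and 0.19 without WT 2.

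The 12 interferon-induced genes, all tested, summed to 463, 247 and 250.1 CPM in Het, against 252, 281 and 214 CPM in WT, and all 12 had a higher fitted level in Het, the median log2 fold change being 0.37. By this sum Het 1 was again the highest library and WT 2 the second. None of the 12 passed edgeR's adjusted threshold, and 3 were higher at an unadjusted p under 0.05, against 3.39% of all tested genes. The leukocyte markers summed to 35.4, 19.6 and 28.9 CPM in Het, against 39.1, 32.8 and 26.5 CPM in WT. Of these 10 genes 8 were tested and none was at 0 in every library. In Het 3 of the 8 had a higher and 5 a lower fitted level. Ptprc, among the lower ones, was at 8.61, 6.77 and 11.5 CPM in Het against 18.7, 13.3 and 9.74 CPM in WT. Cd52, among the higher ones, was at 12.5, 4.73 and 5.92 CPM in Het against 8.23, 6.60 and 5.81 CPM in WT. The part of leukocytes or of interferon in the immunosubunit values was not tested.

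**Figure D4:**
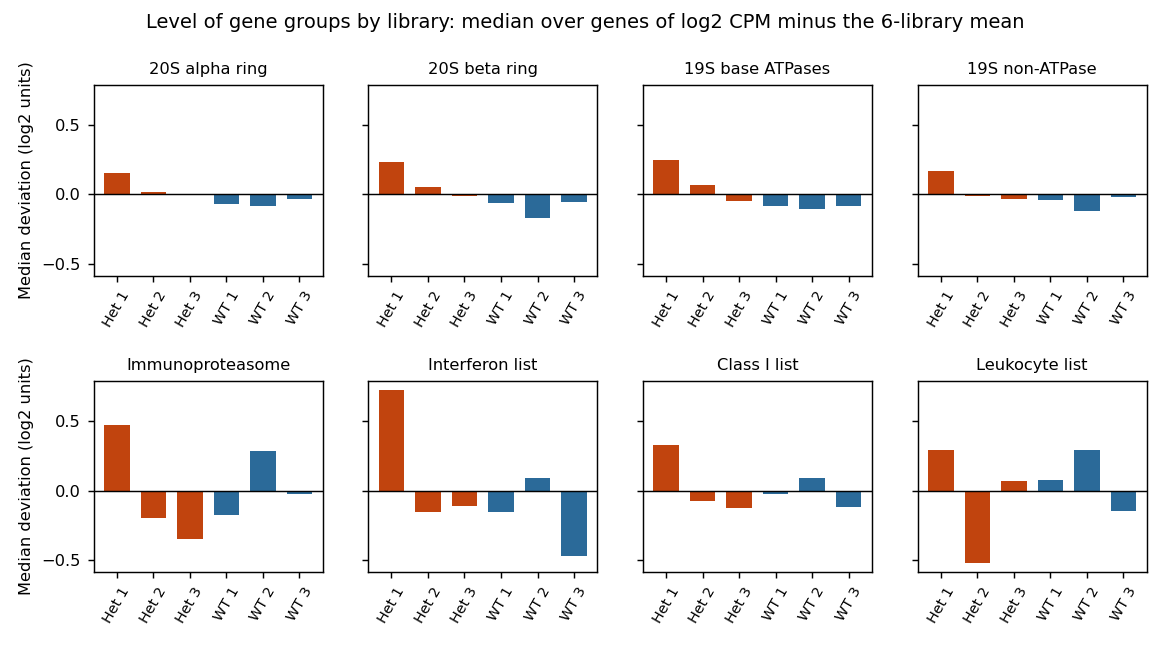
Level of 8 gene groups in each library, as the median over genes of log2 CPM minus the mean of the gene over the 6 libraries (vertical axis, log2 units; Het orange, WT blue). Het 1 is the highest library in the 4 standard groups, where its bar reaches 0.152 to 0.250, and in the immunoproteasome, interferon and class I panels. It is also the highest in the leukocyte panel, at 0.296, just above WT 2 at 0.290. In the 4 standard groups the WT bars lie below 0, while WT 2 lies above 0 in the 4 lower panels.

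Of the class I antigen processing list, 9 of 10 genes had a higher fitted level in Het, against 49.2% of all tested genes. The median was 0.10. Summed CPM was 4443, 3136 and 3169 in the Het libraries, against 3541, 3408 and 3325 in the WT libraries. By this sum Het 1 was the highest library, while Het 2 and Het 3 lay below every WT library. At an unadjusted p under 0.05, 1 gene, Erap1, was lower, against 3.77% of all tested genes. Erap1, the aminopeptidase that trims peptides in the endoplasmic reticulum, had 93.1, 97.6 and 92.1 CPM in Het, against 108, 115 and 105 CPM in WT, without overlap (log2 fold change -0.21, SE 0.09, edgeR adjusted p 0.694). Tap1, which encodes a subunit of the peptide transporter and neighbours Psmb9, had 37.9, 26.4 and 24.8 CPM in Het, against 22.1, 25.7 and 15.8 CPM in WT (log2 fold change 0.48, SE 0.22). Irf1, which encodes a transcription factor that acts on immunoproteasome promoters, had a log2 fold change of 0.14 (SE 0.13), with overlapping genotypes.

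Activators of the core particle centred on a log2 fold change of -0.05 (median of 4 genes). Psme2, the beta subunit of the interferon-inducible PA28 ring, had 29.5, 26.3 and 23.2 CPM in Het, against 30.6, 31.4 and 26.2 CPM in WT (log2 fold change -0.16, SE 0.12, edgeR adjusted p 0.781). Psme1, its partner, had a log2 fold change of -0.04. Psme3, the nuclear PA28 subunit, was at 60.5, 59.7 and 62.0 CPM in Het, against 54.3, 57.3 and 58.0 CPM in WT, a small difference without overlap (log2 fold change 0.10, SE 0.09). Psme4, which encodes the activator PA200, had a log2 fold change of -0.06. Psmf1, which encodes the proteasome-binding regulator PI31, had 30.3, 30.3 and 26.4 CPM in Het, against 26.8, 27.4 and 26.1 CPM in WT (log2 fold change 0.11, SE 0.10, edgeR adjusted p 0.8).

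Among the 7 assembly factors 4 were higher and 3 lower, around a median of 0.01 (log2). Psmd9, a chaperone of the ATPase base, had the smallest unadjusted p among them, 0.102. It had 39.4, 42.1 and 40.2 CPM in Het, against 36.0, 33.6 and 38.4 CPM in WT, without overlap (log2 fold change 0.17, SE 0.09). Psmg3, a chaperone of alpha ring assembly, did not overlap either, at a log2 fold change of 0.18. The base chaperones Psmd5 and Psmd10 had log2 fold changes of -0.07 and -0.04, and the core chaperones Psmg1, Psmg2 and Psmg4 0.04, -0.10 and 0.01. The pattern also took 2 rows outside these roles. Psmc3ip, whose product acts in meiotic recombination, averaged 0.405 ± 0.196 CPM in Het and 0.440 ± 0.175 CPM in WT, and Psme2b, a copy of Psme2, 1.19 ± 0.259 CPM in Het and 1.06 ± 0.118 CPM in WT (SD, n = 3 each). Psmb11, the thymic subunit, has no row.

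The list of proteasome genes without a Psm name mixes subunits with associated factors, and most of its genes were lower. Of 13 tested, 4 had a higher and 9 a lower fitted level in Het, where 49.2% of all tested genes were higher. The median (log2) was -0.06. The Het libraries lay wholly above the WT libraries in 2 genes and wholly below in 4, beside backgrounds of 7.15% and 6.72%. Sem1, the smallest lid subunit, had 65.1, 60.5 and 58.6 CPM in Het, against 49.4, 50.7 and 57.6 CPM in WT, without overlap (log2 fold change 0.23, SE 0.10, unadjusted p 0.0542 by edgeR's quasi-likelihood fit). Zfand2a, which encodes a proteasome-associated stress protein, had a log2 fold change of 0.24 (SE 0.11), also without overlap. The remaining higher genes, Adrm1 and Pomp, had log2 fold changes of 0.25 (SE 0.17) and 0.06 (SE 0.11), with overlapping genotypes. At an unadjusted p under 0.05, 2 of the 13 genes were lower, against 3.77% of all tested genes. Zfand5, which encodes a ubiquitin-binding zinc finger protein that stimulates the proteasome, had 20.4, 23.6 and 19.1 CPM in Het, against 25.9, 33.3 and 24.6 CPM in WT, without overlap (log2 fold change -0.41, SE 0.14, edgeR adjusted p 0.685). Ube3a, a ubiquitin ligase gene, had a log2 fold change of -0.36 (SE 0.14) and no overlap.

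Among 12 tested genes of proteasome transcription control, 6 had a higher and 6 a lower fitted level in Het, with a median of 0.02, and 0 reached an unadjusted p under 0.05. Nfe2l1 itself had 135, 129.7 and 135 CPM in Het, against 134, 142 and 145 CPM in WT (log2 fold change -0.07, SE 0.09). Ngly1, the glycanase that processes the NRF1 protein, had 36.4, 38.9 and 36.6 CPM in Het, against 41.9, 41.6 and 41.2 CPM in WT, without overlap (log2 fold change -0.16, SE 0.09). The small Maf partners Mafg and Maff had log2 fold changes of 0.24 (SE 0.16) and 0.62 (SE 0.46), and Hsf1, the heat shock regulator, 0.18 (SE 0.13), all with overlap. Messenger RNA does not show the processing or nuclear entry of NRF1.

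Of 18 ubiquitin and shuttle genes, 12 had a higher and 6 a lower fitted level in Het, with a median of 0.07. Uba6, an alternative ubiquitin-activating enzyme, had 5.32, 6.71 and 7.17 CPM in Het, against 9.72, 8.62 and 8.46 CPM in WT, without overlap (log2 fold change -0.48, SE 0.15, edgeR adjusted p 0.685). Ubb, a polyubiquitin gene, had 51.5, 41.4 and 47.5 CPM in Het, against 33.6, 33.1 and 41.9 CPM in WT, where Het 2 lay just below WT 3 (log2 fold change 0.37, SE 0.13, edgeR adjusted p 0.685). Uba1, the main ubiquitin-activating enzyme, did not overlap at a log2 fold change of 0.15 (SE 0.09), and Ubqln4, a shuttle factor, overlapped at 0.25 (SE 0.12).

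Levels of different genes were compared per kilobase of the exons of the annotated transcript with the longest coding sequence. On this scale Psmb6 had the highest mean of the beta subunits, with 161 CPM per kb in Het and 143 in WT. Psmb7 had 90.9 in Het and 78.5 in WT, and Psmb5 19.2 in Het and 16.5 in WT. The immunosubunits Psmb8, Psmb9 and Psmb10 had 24.6, 13.2 and 29.6 CPM per kb in Het and 22.8, 12.3 and 30.7 in WT. Many proteasome genes have processed copies elsewhere in the genome, and reads that map to several places may have been left out of the counts. Of the 49 members, 26 shared at least one run of 50 bases with an annotated transcript of another gene, and 11 shared over 20% of such runs. For Psme2 the share was 59.3%, for Psmb5 57.1%, for Psmb3 55.8% and for Psma5 55.4%. For Psmb7 it was 28.1%, for Psmd2 26.4% and for Psma3 22.02%. The levels of these genes, and the ratios of Psmb8 to Psmb5 and of Psmb10 to Psmb7, are uncertain for that reason. Psmc4 and Psmc5 shared none. Among the 15 standard subunits that shared none, the genotypes did not overlap in 4 (26.7%), each higher in Het. This compares with 37.5% of all 32 standard subunits and 7.15% of all tested genes.

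The catalytic subunits Psmb5 and Psmb6 hold an antioxidant response element core close to the start. Psmb7 had no promoter entry and was not searched. The promoters of the 4 members with an unadjusted p under 0.05 are shown with those of Psmb5 and Psmb6. Each is the 150 bases before the outermost annotated start, 5′ to 3′ on the strand of the gene, from RefSeq (GRCm38.p6). Capitals mark the antioxidant response element core (TGACNNNGC), the CCAAT box (CCAAT) and the interferon response core (GAAA, 2 bases of any kind and GAAA again) on either strand, with no match of one motif inside another.
Psma3, chr12:70974471-70974620, plus strand: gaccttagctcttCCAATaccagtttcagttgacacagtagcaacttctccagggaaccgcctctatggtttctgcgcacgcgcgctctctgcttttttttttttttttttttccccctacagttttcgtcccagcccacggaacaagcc
Psmb3, chr11:97703249-97703398, plus strand: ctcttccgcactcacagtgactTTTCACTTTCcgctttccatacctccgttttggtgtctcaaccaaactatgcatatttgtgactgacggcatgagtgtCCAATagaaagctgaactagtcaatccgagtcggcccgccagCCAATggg
Psmc4, chr7:28050102-28050251, minus strand: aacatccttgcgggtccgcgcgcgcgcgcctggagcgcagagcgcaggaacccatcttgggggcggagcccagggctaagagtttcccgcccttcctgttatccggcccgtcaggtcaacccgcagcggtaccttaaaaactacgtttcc
Psmc5, chr11:106256004-106256153, plus strand: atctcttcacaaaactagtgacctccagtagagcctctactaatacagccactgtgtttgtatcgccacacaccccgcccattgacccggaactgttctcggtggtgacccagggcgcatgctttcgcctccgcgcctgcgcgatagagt
Psmb5, chr14:54618023-54618172, minus strand: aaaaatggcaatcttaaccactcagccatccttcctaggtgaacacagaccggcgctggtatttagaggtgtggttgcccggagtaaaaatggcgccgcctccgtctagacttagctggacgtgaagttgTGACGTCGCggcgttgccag
Psmb6, chr11:70525207-70525356, plus strand: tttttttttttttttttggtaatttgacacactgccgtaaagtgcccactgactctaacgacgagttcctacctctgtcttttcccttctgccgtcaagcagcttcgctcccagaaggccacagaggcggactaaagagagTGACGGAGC

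The match in Psmb5 begins 47 bases and that in Psmb6 9 bases before the RefSeq start. Over 250 bases before the start, 5 of 41 members with a promoter entry held the antioxidant response element core (12.2%), against 11.5% of 27025 genes in the same table. The CCAAT box was found in 14 of the 41 (34.1%), against 37.5%, and the interferon response core in 3 (7.32%), against 3.46%. These 3 were Psmb3, Psmd4 and Psmd9. Psmb8, Psmb9, Psmb10, Psme1 and Psme2 held no interferon response core in that window. None of the 4 members with an unadjusted p under 0.05 held the antioxidant response element core in that window. A match of letters is a description, and elements outside the window were not searched.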

How the data were processed

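The members and gene lists were chosen with earlier results of these data known. The unit is read counts per Ensembl gene, used as the authors deposited them and raw per the file headers, and the authors' table of fold changes was not used. The submitters' processing notes name mm10 as the build and DESeq2 1.16.1, HTSeq 0.6.1p1, STAR 2.5.3a, cutadapt 1.10 and bcl2fastq 2.17.1.14 as tools. How strand and reads with several map positions were treated, and which annotation was counted, is not stated there, so reads of overlapping genes may not be separable.

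Of 25904 genes, 14606 passed edgeR's filterByExpr, all 49 members among them. The 2 genotypes were fitted with genotype as the single term in edgeR 4.0.16 under R 4.3.3 (TMM scaling, quasi-likelihood test, two-sided). Benjamini-Hochberg adjustment ran across the tested genes, with 0.05 as threshold. SE came from the F statistic. Group levels used log2 CPM with a prior count of 2. Alternatives were DESeq2 1.42.0, limma-voom (limma 3.58.1), other scalings and filters, a replicate block and left-out libraries. The fit was tested on simulated data, with changed genes drawn from all genes rather than from the members. The edgeR test called 0 of 49 genes simulated at 1.25-fold, 8 of 49 at 1.5-fold and 29 of 49 at 2-fold. Differences of the size seen in the members could thus go uncalled. An exact permutation test of 3 against 3 cannot give a two-sided p below 0.1, so none was run.

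Full values are given for members with an unadjusted p under 0.05, the member with the smallest p in each role group and the catalytic subunits with their immune counterparts. Up to 4 genes of each pathway list were named by smallest p. One gene that this rule names is not reported here. Other genes were named after their values were seen. Exon lengths and shared runs came from GENCODE M21 (GRCm38), in which 45 of the 49 members have the start and end of the deposited table. Promoters came from RefSeq and matched 41 members by symbol.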

Additional observations from a re-analysis of the deposited data

How the results depend on the processing

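No member passed the adjusted threshold under any of the 14 alternatives. The limits are 3 libraries a genotype and the weight of Het 1, and the cause of the changes below was not tested. Members higher at an unadjusted p under 0.05, 4 as reported, were 2 with no filter on low counts, 1 to 5 when 1 library was left out (1 without Het 1, WT 2 or WT 3 and 2 without WT 1) and 14 without both Het 2 and Het 3, whose clock genes differed. Members lower at that p, 0 as reported, were 1 without WT 1 and 0 otherwise. The count without overlap in either direction was 15 as reported, all higher in Het, beside backgrounds of 7.15% upward and 6.72% downward. It was 16 to 25 with 1 library left out (25 without Het 3, 23 without WT 3). It was 43 without both Het 2 and Het 3. Without Het 3, 23 were higher and 2 lower (backgrounds 12.8% and 12.9%). Without WT 3, 20 were higher and 3 lower (13% and 12.2%). Without both Het 2 and Het 3, 40 were higher and 3 lower (31.2% and 31.9%). The backgrounds thus rose as well.

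Leaving Het 1 as the lone Het library assumes that it varies like the others. Across settings that left out 1 library or both of these, median log2 fold changes ranged from 0.034 (without Het 1) to 0.25 (without both) for all members. In the same way they ranged from 0.027 to 0.18 for the alpha ring, 0.081 to 0.31 for the beta ring, 0.10 to 0.34 for the ATPases and 0.021 to 0.24 for the non-ATPase subunits. The range was -0.26 to 0.48 for the immunosubunits, -0.10 to 0.055 for the activators and -0.062 to 0.13 for the assembly factors, which had -0.050 with limma-voom and 0.07 without Het 3. Log2 ratio differences ranged from -0.43 to 0.35 for Psmb8 over Psmb5, from -0.34 to 0.20 for Psmb9 over Psmb6 and from -0.41 to -0.0065 for Psmb10 over Psmb7. The first was above 0 without both Het 2 and Het 3, and the second also without Het 3 (0.17) or WT 2 (0.19).

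Single genes changed sign. Psmb8 ranged from -0.27 (without Het 1; -0.019 without WT 1) to 0.65, and Psmb9 from -0.14 (without Het 1; -0.095 without WT 3) to 0.48. Psmb10 ranged from -0.26 to 0.29 and was 0.035 without Het 2, 0.045 without Het 3 and 0.09 without WT 2. Psme2 ranged from -0.25 to 0.010, Mafg from -0.019 to 0.37 and Maff from -0.25 to 1.09, with the sign change in each without both Het 2 and Het 3.

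Deviations of same-numbered libraries had correlations of -0.068, 0.116 and 0.152, within the range of -0.298 to 0.175 for differently numbered ones. The numbers were therefore not taken as pairs. With a replicate block 0 members passed the adjusted threshold, 4 were higher at an unadjusted p under 0.05 and the median was 0.09.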
